A study of Caenorhabditis elegans with 12 samples.

Results

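The genes described here code for 9 enzymes that make acetyl-CoA or handle citrate in *C. elegans*. They were listed by name for their part in supplying acetyl-CoA, not by their measured values, although earlier results of these data were known. They are 9 of the 46920 loci in the count table. They are *pdha-1*, *pdhb-1*, *dlat-1* and *dld-1* of the pyruvate dehydrogenase (PDH) complex, *cts-1* and *aco-2* of mitochondrial citrate metabolism, and *acly-1*, *acly-2* and *acs-19*, whose products make acetyl-CoA outside mitochondria. RNA was sequenced from whole WT (N2) and *lin-40*(*yth27*) worms. The worms fed on control bacteria carrying an empty vector (EV) or on bacteria for *cco-1* RNAi, with 3 libraries in each of the 4 groups. The RNA-seq methods name the RNAi bacteria EV+*cco-1*. The *yth27* allele is a point mutation from a mutagenesis screen in the gene for LIN-40, a scaffold subunit of the NuRD chromatin remodeling and histone deacetylase complex. It is a single allele in a single strain. The *cco-1* product is part of complex IV in the electron transport chain, and its knockdown is a standard way to stress mitochondria. All animals, controls included, were kept at 20°C on their bacteria from hatching, harvested at the L4 larval stage and frozen. The study describes its data in general as biological replicates, but the cultures behind the 3 libraries of a group are not described, so p-values measure the spread between these libraries.

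Pyruvate from glycolysis enters mitochondria, where the PDH complex turns it into acetyl-CoA, and citrate synthase joins that acetyl group to oxaloacetate. The citrate formed can stay in the TCA cycle, where aconitase converts it to isocitrate, or leave for the cytosol, where ATP citrate lyase splits it to release acetyl-CoA again. Acetyl-CoA synthetase makes the same product from acetate, and acetyl-CoA is the donor of the acetyl groups on histones. The question put to these data was how the transcripts of this route respond to *cco-1* RNAi with an intact or a mutant NuRD complex.

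The library totals lay between 18553441 and 22538088 expected counts, with a median of 20230231. The scaling factors of edgeR's TMM method (trimmed mean of M values) ranged from 0.796 in *lin-40*(*yth27*) *cco-1* replicate 3 to 1.10, and WT EV replicate 1 had the next lowest factor, 0.884. Levels are given below as CPM, the count as a share of the TMM-scaled library total. All 9 enzymes passed the filter on low counts and were tested among 14867 genes. Their counts lay between 943 and 43975 per library, so that counting error alone was at most 3.26% of a value and the spread between libraries was the main error. *cco-1* (listed as *cox-5B*) went from 494 ± 21.5 to 159.8 ± 28.7 CPM upon its RNAi in WT (log2 fold change −1.63) and from 416 ± 8.35 to 219 ± 40.5 CPM in *lin-40*(*yth27*) (−0.92), without overlap in either. The measured knockdown was smaller in the mutant by 0.71 on the log2 scale (standard error 0.22, unadjusted p = 0.00768, adjusted p = 0.394 by edgeR). That difference did not pass over all genes, but it bears on every comparison of the responses. The log2 fold change of the *lin-40* transcript between the genotypes on EV was −0.04, which does not check a point mutation. Every tissue marker listed for intestine, muscle, neurons, hypodermis and germ line was detected. Because whole worms were measured, fewer cells of a type and less RNA per cell cannot be told apart. The summed level of 4 genes that are absent or low before adulthood (*vit-2*, *vit-5*, *vit-6* and *col-19*) was 5640 to 7120 CPM in *lin-40*(*yth27*) on EV. In WT it was 538 to 3370 CPM on EV and 96.4 to 3750 CPM with *cco-1* knocked down, and in *lin-40*(*yth27*) with *cco-1* knocked down it was 725 to 2340 CPM. The *lin-40*(*yth27*) EV libraries stood above all others in this sum and in each of *vit-2*, *vit-5* and *vit-6*, although all groups were labelled L4. They did not for *col-19*, which reached 418 CPM in the highest WT library on *cco-1* RNAi, above every *lin-40*(*yth27*) EV library.

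*cts-1* was by far the most abundant of the 9 transcripts and *acly-2* the least. Levels can be compared between genes only per length, here as CPM per kilobase of annotated exon. On that scale *cts-1* measured 1133 ± 214 in WT on EV (SD, n = 3 libraries), 3.23 times the level of *aco-2* at 351 ± 77.9. The PDH genes followed close together, at 335 ± 44.4 for *dlat-1*, 310 ± 29.5 for *pdhb-1*, 295 ± 43.0 for *dld-1* and 257 ± 23.3 for *pdha-1*. From *aco-2* to *pdha-1*, neighbours in this order overlapped between libraries and were not separable. The genes for the cytosolic route were lower, with *acs-19* at 162 ± 21.3, *acly-1* at 63.1 ± 14.0 and *acly-2* at 20.8 ± 2.44. *cts-1*, *acs-19*, *acly-1* and *acly-2* kept their places, without overlap with a neighbour, in all 4 groups. *acly-1* and *acly-2* code for homologous proteins, and reads that fit both could have been divided between them in the counting. Their ratio of 3.03 in WT on EV carries that uncertainty.

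**Figure D1:**
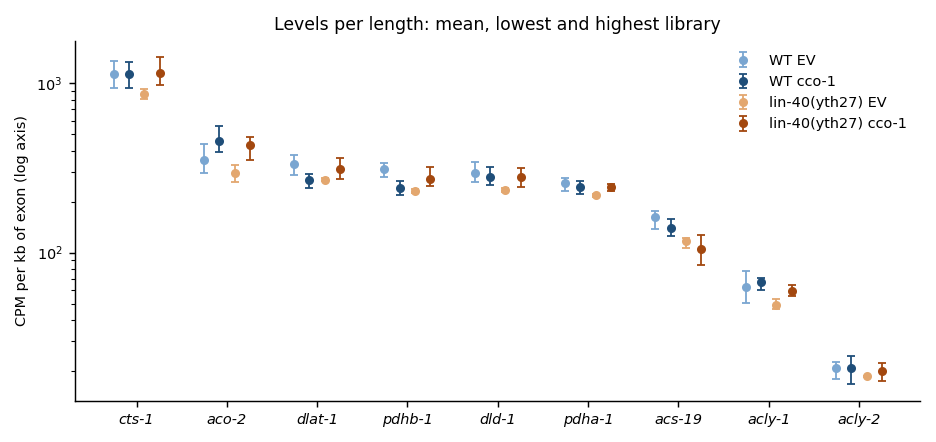
Level of each enzyme in CPM per kilobase of annotated exon (log axis) in the 4 groups, where a point is the mean of 3 libraries and a bar runs from the lowest to the highest library. *cts-1* stands above the other genes in every group, the PDH genes lie close together, and *acs-19*, *acly-1* and *acly-2* follow in that order. *aco-2* overlaps its neighbour among the PDH genes except in WT on *cco-1* RNAi, where it is 1.64 times *dld-1*.

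The gene models below are those of the WBcel235 assembly (Ensembl release 115), matched by WormBase identifier. *pdha-1* (WBGene00011510) lies on chromosome II from 8066285 to 8068184, *pdhb-1* (WBGene00015413) on IV from 3399672 to 3403908, *dlat-1* (WBGene00009082) on V from 14445323 to 14447290 and *dld-1* (WBGene00010794) on IV from 14464517 to 14469136. *cts-1* (WBGene00000833) and *aco-2* (WBGene00000041) lie on III, from 10214771 to 10216635 and from 7973717 to 7977355. *acly-1* (WBGene00016995) lies on X from 1479542 to 1484087, *acly-2* (WBGene00007150) on V from 13116488 to 13120131 and *acs-19* (WBGene00007969) on III from 3864489 to 3867098. All are protein coding, and the values are of whole genes. The exons of 5 of them overlap a gene on the opposite strand. The longest such overlap is 209 bases, between *pdha-1* and *gpcp-2*, which measured 101 to 131 CPM over the 12 libraries. The reads were aligned in what the methods call orientation mode, but the library kit is not described as marking strand and the counting is not stated to use it, so reads from these overlaps cannot be assigned with certainty.

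Upon *cco-1* RNAi in WT animals, the log2 fold changes of the 9 enzymes had no common sign. Those of *pdhb-1* and *dlat-1* were below 0, that of *aco-2* was above 0, and those of *cts-1* and *pdha-1* were near 0. Differences between enzymes were not tested in this fit. None of the 9 passed an adjusted p under 0.05 in the edgeR quasi-likelihood test with Benjamini-Hochberg (BH) adjustment on all 12 libraries, against 6.25% of all genes tested. At an unadjusted p under 0.05, 2 of the 9 were lower and 0 higher, against 11.7% of all genes lower and 9.11% higher. DESeq2 also called 0 of the 9, and 1428 of the 14999 genes it tested. The median log2 fold change of the 9 was −0.07, and that of all genes was 0.06.

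*pdhb-1*, which codes for the beta subunit of the PDH component that decarboxylates pyruvate, measured 440.1, 363 and 403 CPM in replicates 1, 2 and 3 of WT on EV and 343, 283 and 308 CPM in those on RNAi. It was the single enzyme whose WT libraries did not overlap, and 13.3% of all genes were lower without overlap in the same way. Its log2 fold change was −0.37 (standard error 0.13, adjusted p = 0.133 by edgeR), a fold of 0.774 with a 95% interval of 0.633 to 0.947. *dlat-1*, for the acetyltransferase core that passes the acetyl group to coenzyme A, measured 675, 517 and 611 CPM on EV and 522, 432 and 485 CPM on RNAi. The highest library on RNAi lay just above the lowest on EV. The log2 fold change was −0.33 (standard error 0.14, adjusted p = 0.212 by edgeR). In the same libraries the summed level of 4 hypodermal markers was 704 to 827 CPM on EV and 432 to 554 CPM on RNAi, without overlap for the cuticle collagen genes *dpy-7* and *rol-6* and with overlap for *lin-26* and *elt-3*, and all were detected. The part of these markers in the enzyme values was not tested.

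The partner of *pdhb-1*, *pdha-1*, codes for the alpha subunit of the same component. It measured 454, 379 and 428 CPM on EV and 437, 366 and 403 CPM on RNAi, so that the groups overlapped almost fully. Its log2 fold change was −0.07, with a 95% interval of the fold from 0.806 to 1.13. *dld-1* codes for dihydrolipoamide dehydrogenase, which the PDH complex shares with other dehydrogenase complexes. It measured 625, 474 and 513.5 CPM on EV and 583, 459 and 487 CPM on RNAi (log2 fold change −0.08).

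The citrate enzymes had unlike log2 fold changes in WT animals, but their 95% intervals overlapped (−0.05 to 0.81 for *aco-2* and −0.43 to 0.41 for *cts-1*). *cts-1*, citrate synthase, measured 2320, 1591 and 1901 CPM on EV and 2276, 1605 and 1898.5 CPM on RNAi. Each replicate number had nearly the same level on both kinds of bacteria, while the numbers differed widely among themselves. The log2 fold change of *cts-1* was −0.01, and the 95% interval of its fold ran from 0.743 to 1.33. *aco-2*, mitochondrial aconitase, measured 1276, 854 and 925 CPM on EV and 1628, 1146 and 1211 CPM on RNAi. The groups overlapped because WT EV replicate 1 was above both lower RNAi libraries, but each RNAi library was above the EV library of the same number. The log2 fold change was 0.38 (standard error 0.20, adjusted p = 0.300 by edgeR). Leaving out WT EV replicate 1 gave 0.58. Leaving out WT EV replicate 2 gave 0.25, and leaving out the RNAi library of replicate 1 gave 0.21.

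**Figure D2:**
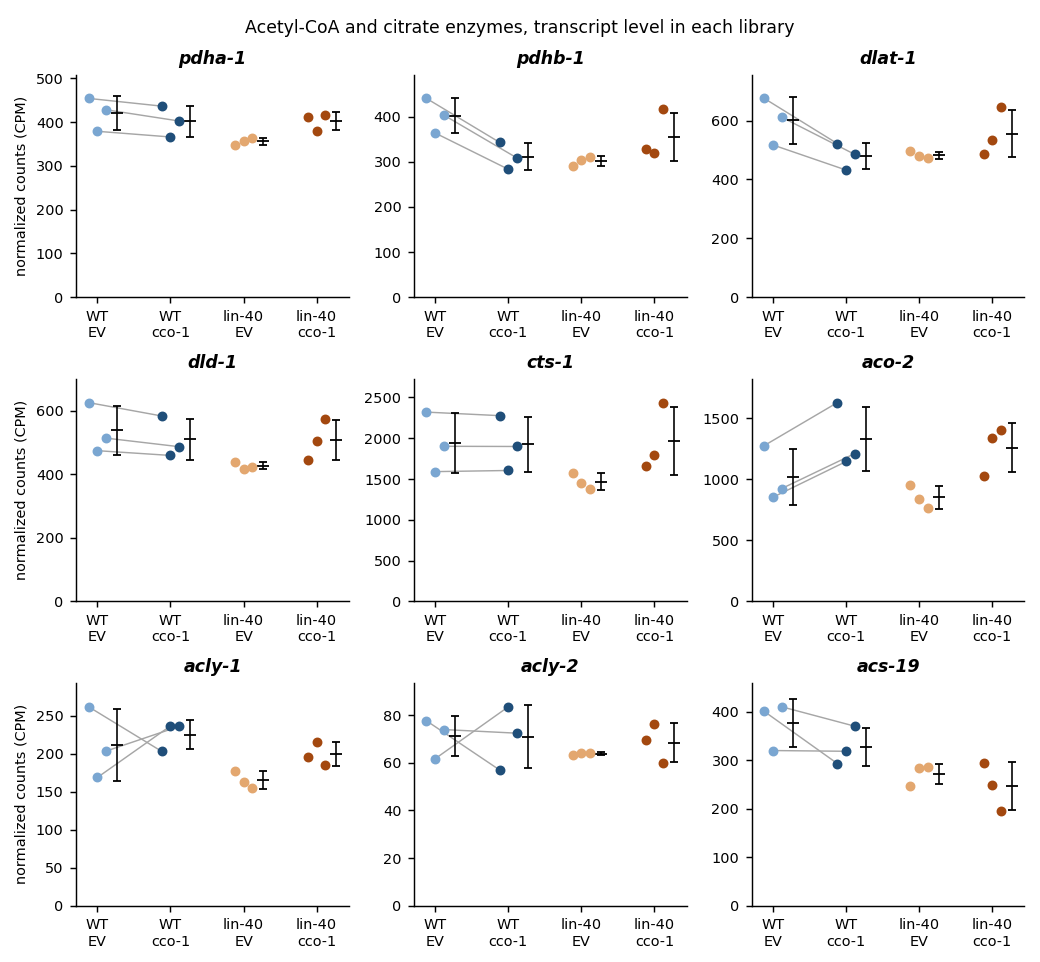
CPM of each enzyme (vertical axes from 0) in the 12 libraries by group, where a point is a library, grey lines join WT libraries of one replicate number, and the black mark is the mean with its SD (n = 3). The lines for *pdhb-1* and *dlat-1* slope down in parallel, those for *aco-2* slope up, and those for *acly-1* and *acly-2* cross.

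WT libraries that share a replicate number deviated together from their group means, with correlations across genes of 0.723, 0.588 and 0.288. The study states no pairing, and the numbers were taken to pair the WT samples from these same values. Correlations between unlike numbers were not computed. Replicate 1 also had the lowest adult-stage sum in each WT group (538 CPM on EV and 96.4 CPM on RNAi), whose part was not tested. The changes within pairs rest on that choice. The log2 change of *pdhb-1* within the 3 pairs was −0.36, −0.36 and −0.39, and that of *dlat-1* was −0.37, −0.26 and −0.33. *aco-2* changed by 0.35, 0.42 and 0.39. In a fit with the replicate block on the 6 WT libraries alone, chosen after the data were seen, these 3 enzymes passed the threshold (*aco-2* with an adjusted p of 0.00713, *pdhb-1* with 0.0182 and *dlat-1* with 0.0258, by edgeR). That fit called 17.6% of the 14261 genes it tested. With the block fitted across all 12 libraries none of the 9 passed (*pdhb-1* adjusted p = 0.0982 by edgeR).

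Pairs of *cts-1* hardly changed, by −0.03, 0.01 and −0.00 on the log2 scale. The cytosolic enzymes had no common direction in WT pairs. *acly-1*, for ATP citrate lyase, measured 262, 169 and 204 CPM on EV and 203, 237 and 236 CPM on RNAi, which is lower in pair 1 and higher in the other pairs. Its paralog *acly-2* measured 77.6, 61.7 and 73.9 CPM on EV and 57.0, 83.5 and 72.4 CPM on RNAi, again with pairs 1 and 2 moving in opposite directions. *acs-19*, for acetyl-CoA synthetase, measured 401, 320.2 and 411 CPM on EV and 293, 319 and 370.4 CPM on RNAi. Its log2 fold change of −0.20 rested mainly on pair 1, at −0.45, against −0.01 and −0.15 in the other pairs. None of the 3 reached an unadjusted p under 0.05.

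Ratios between enzymes within a library do not depend on how libraries are scaled. These were examined after the values had been seen, and with 3 libraries against 3 a two-sided exact permutation test cannot go below 0.1. Of all 36 ratios between the 9 enzymes, 14 did not overlap between EV and RNAi in WT, and 4 did not in *lin-40*(*yth27*). Among the 15 ratios of mitochondrial enzymes, 11 did not overlap in WT. The ratios below are examples of these, and the share over all pairs of genes was not computed. The ratio of *pdhb-1* to *pdha-1* counts was 0.969, 0.959 and 0.941 in WT on EV and 0.785, 0.774 and 0.765 on RNAi. The SDs within these groups were 0.0141 and 0.00999, and the means of 0.956 and 0.775 lay far apart relative to them (exact permutation p = 0.1, n = 3 against 3). Of all other genes, 11.3% were also lower relative to *pdha-1* without overlap. The ratio of *dlat-1* to *pdha-1* went from 1.43 ± 0.0612 to 1.19 ± 0.0126 (SD, n = 3), also without overlap. The ratio of *aco-2* to *cts-1* was 0.550, 0.537 and 0.487 on EV and 0.715, 0.714 and 0.638 on RNAi, and 7.44% of all other genes were higher against *cts-1* without overlap.

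**Figure D3:**
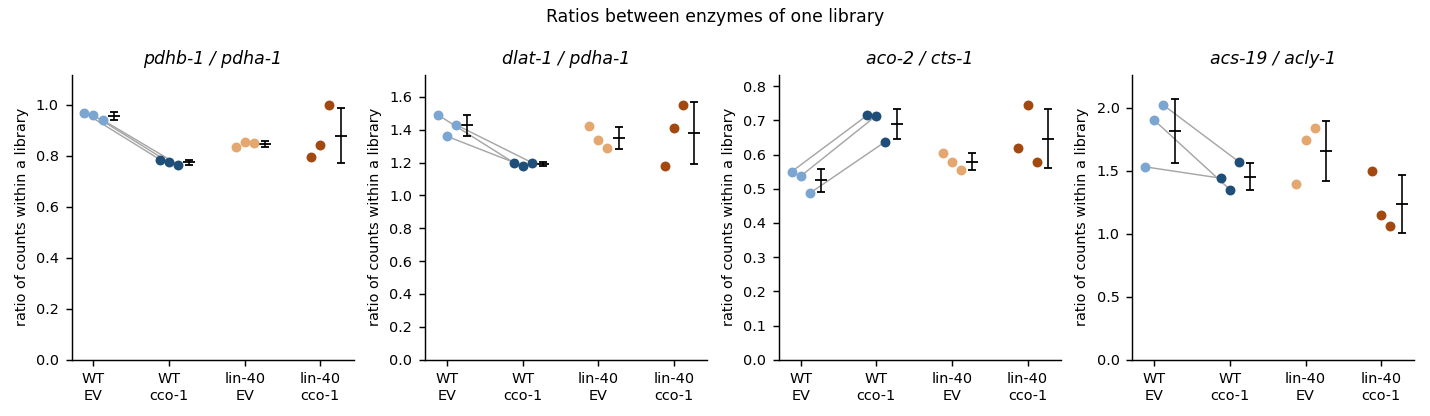
Ratios of counts between named enzymes within each library (vertical axes from 0), where points are libraries, grey lines join WT libraries of one replicate number, and the black mark is the mean with its SD (n = 3). In WT the ratios of *pdhb-1* and *dlat-1* to *pdha-1* are lower, and that of *aco-2* to *cts-1* higher, in all 3 libraries on *cco-1* RNAi. The *lin-40*(*yth27*) groups overlap in all 4 ratios shown.

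In *lin-40*(*yth27*) animals, *cco-1* RNAi went with higher values for 8 of the 9 enzymes, where 45.8% of all genes were higher. None of the 9 passed the adjusted threshold in edgeR, which 1.16% of all genes did, and 1 was higher at an unadjusted p under 0.05, against 7.24% of all genes higher. DESeq2 called 0 of the 9, and 395 of the 14637 genes it tested. The median log2 fold change of the 9 was 0.23, against −0.03 for all genes. In 6 enzymes all 3 RNAi libraries were above all 3 EV libraries (*pdha-1*, *pdhb-1*, *dld-1*, *cts-1*, *aco-2* and *acly-1*), which was the case for 11.1% of all genes. The same comparison went with a lower sum of the adult-stage transcripts, at 5640 to 7120 CPM on EV and 725 to 2340 CPM on RNAi, whose part in the enzyme values was not tested.

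*aco-2* had the largest difference of the 9, with 954, 839 and 763 CPM on EV and 1028, 1337 and 1406 CPM on RNAi. Its log2 fold change was 0.56 (standard error 0.20, adjusted p = 0.275 by edgeR), a fold of 1.48 with a 95% interval of 1.09 to 1.99. *cts-1* measured 1577, 1449 and 1376 CPM on EV and 1663, 1796 and 2436 CPM on RNAi (log2 fold change 0.42, adjusted p = 0.422 by edgeR). The highest value belonged to *lin-40*(*yth27*) *cco-1* replicate 3, the library with the lowest scaling factor. Without that library the log2 fold change of *cts-1* was 0.25 and that of *aco-2* was 0.48.

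*pdha-1* measured 348, 357 and 364 CPM on EV and 413, 379 and 416 CPM on RNAi (log2 fold change 0.18). *pdhb-1* measured 290.0, 305 and 310.4 CPM on EV and 328, 319 and 416 CPM on RNAi (0.23). *dlat-1*, with 496, 479 and 472 CPM on EV, overlapped with the 487, 535 and 645 CPM on RNAi (0.21). *dld-1* measured 439, 418 and 422 CPM on EV and 446, 503 and 573 CPM on RNAi (0.25). Without *lin-40*(*yth27*) *cco-1* replicate 3, the highest RNAi library for each of these genes, the log2 fold changes were 0.16 for *pdha-1*, 0.11 for *pdhb-1*, 0.09 for *dlat-1* and 0.16 for *dld-1*. That of *dlat-1* was 0.31 without *cco-1* replicate 1. The same library set the spread of the *pdhb-1* to *pdha-1* ratio, which was 0.794, 0.843 and 0.999 on RNAi.

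Of the cytosolic enzymes, *acly-1* was higher without overlap, at 178, 163 and 156 CPM on EV and 196, 216 and 185 CPM on RNAi (log2 fold change 0.27, 95% interval of the fold 0.954 to 1.52). *acly-2* measured 63.3, 64.2 and 64.1 CPM on EV, the tightest group of all, and 69.5, 76.1 and 59.8 CPM on RNAi. *acs-19* was the exception in sign, with 248, 283 and 286 CPM on EV and 295, 249 and 196 CPM on RNAi (log2 fold change −0.14). That sign rested on *lin-40*(*yth27*) *cco-1* replicate 3, without which the value was 0.01.

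**Figure D4:**
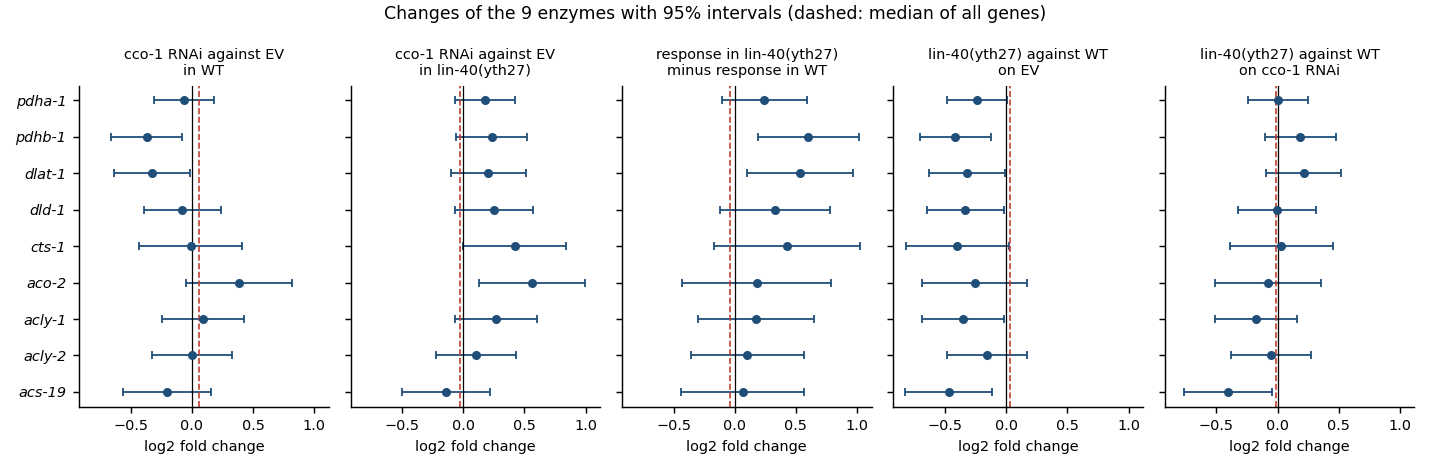
Log2 fold change of each enzyme (points) with its 95% interval (bars) from the edgeR fit in the 5 comparisons, where the solid line is 0 and the dashed line the median of all genes. On EV all 9 points lie left of 0 in *lin-40*(*yth27*) against WT, and 8 of the 9 lie right of 0 for *cco-1* RNAi in *lin-40*(*yth27*). None passed the adjusted threshold.

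The responses of the genotypes were compared directly by the interaction, the log2 change in *lin-40*(*yth27*) minus that in WT. It carries the smaller measured *cco-1* knockdown and the change in adult-stage transcripts of the *lin-40*(*yth27*) libraries, whose part was not tested. It was above 0 for all 9 enzymes, against 47.4% of all genes, but none passed the adjusted threshold in edgeR, and neither did any other gene (0.0% of the 14867). At an unadjusted p under 0.05, 2 of the 9 were higher, against 6.84% of all genes. DESeq2 called 0 of the 9, and 43 of the 3070 genes to which it gave an adjusted p. *pdhb-1* had the largest difference, 0.60 (standard error 0.19, unadjusted p = 0.00795, adjusted p = 0.394 by edgeR), followed by *dlat-1* at 0.53 (standard error 0.20, unadjusted p = 0.0209, adjusted p = 0.410 by edgeR). These PDH genes also had the lowest log2 fold changes of the 9 in WT (−0.37 and −0.33). The WT change is subtracted in the interaction, so a low value there raises it, and this is not separate evidence. *cts-1* differed by 0.43, *dld-1* by 0.33 and *pdha-1* by 0.24. *aco-2*, with a positive log2 fold change in each genotype, differed by 0.18 (95% interval −0.43 to 0.79). The median of the 9 was 0.24, against −0.04 for all genes. When libraries were scaled by their totals, the split was 4 above 0 and 5 below, with a median of −0.04 against −0.31 for all genes, so that the median of the enzymes lay above that of all genes by 0.28 with TMM and by 0.27 with library totals.

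The comparison on EV shows where the genotypes started. All 9 enzymes were lower in *lin-40*(*yth27*) than in WT without any RNAi, where 46.3% of all genes were lower, and the median log2 fold change was −0.33 against 0.03 for all genes. None passed the adjusted threshold in edgeR, which 0.377% of all genes did, and 5 were lower at an unadjusted p under 0.05, against 7.43% of all genes lower. DESeq2 called 0 of the 9, and 457 of the 15722 genes it tested. In 6 of the enzymes (*pdha-1*, *pdhb-1*, *dlat-1*, *dld-1*, *cts-1* and *acs-19*) the 3 *lin-40*(*yth27*) libraries were below all 3 WT libraries, as were 13.1% of all genes. The direction of all 9 was the same under each of the alternatives, library totals and every library left out included. The comparison shares its EV libraries with those of the RNAi responses, so these are not separate pieces of evidence.

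*acs-19* was furthest apart, at 272 ± 21.2 CPM in *lin-40*(*yth27*) and 377 ± 49.6 CPM in WT (SD, n = 3). The log2 fold change was −0.47 (standard error 0.16, unadjusted p = 0.0145, adjusted p = 0.223 by edgeR). *pdhb-1* followed, at 302 ± 10.5 against 402 ± 38.3 CPM, with a log2 fold change of −0.41 (standard error 0.13, unadjusted p = 0.00921, adjusted p = 0.194 by edgeR). The level of *pdhb-1* in *lin-40*(*yth27*) on EV was thus close to the 311 ± 29.9 CPM of WT on *cco-1* RNAi. Its ratio to *pdha-1* was lower too, at 0.834, 0.853 and 0.852 against 0.941 to 0.969 in WT on EV, and 3.31% of all other genes were lower against *pdha-1* without overlap. *cts-1* differed by −0.40, *acly-1* by −0.35, *dld-1* by −0.33 and *dlat-1* by −0.32. Smaller differences were found for *aco-2* (−0.26), *pdha-1* (−0.24) and *acly-2* (−0.15). The lower enzyme levels on EV went with the higher adult-stage transcripts of the same 3 libraries, where *vit-2*, a yolk protein gene, measured 2050 to 2460 CPM against 188 to 1160 in WT on EV. The part of stage in the enzyme levels was not tested. WT EV replicate 1 had the highest level of 8 of the 9 enzymes in its group, *acs-19* being the exception, and without it the median difference was −0.21, with *cts-1* at −0.25, *dld-1* at −0.21, *acly-1* at −0.17, *acly-2* at −0.09 and *aco-2* at −0.06. Its adult-stage sum was the lowest of its group, at 538 CPM. EV libraries of one title number deviated together across the genotypes (correlations of 0.467, 0.278 and 0.169), while by short name the correlations were −0.426 and 0.169. In all 3 pairs by title, 8 of the 9 enzymes were lower in *lin-40*(*yth27*), *acly-2* being the exception. The share of all genes lower in all 3 pairs was not computed, so no result about the enzymes is read from that count. A replicate block by title number on the 6 EV libraries called none of the 9 (lowest adjusted p = 0.0990 for *pdhb-1*, by edgeR).

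On *cco-1* RNAi the genotypes lay close together. The median log2 fold change of *lin-40*(*yth27*) against WT was −0.01, against −0.02 for all genes, with 4 enzymes higher and 5 lower (48.3% and 51.7% of all genes). None of the 9 passed in edgeR or in DESeq2, against 0.626% of all genes in edgeR and 393 of 16084 in DESeq2. In none did the libraries separate (7.34% of all genes were lower and 9.85% higher without overlap). *acs-19* alone reached an unadjusted p under 0.05, where 5.65% of all genes were lower. It measured 247 ± 49.4 CPM in *lin-40*(*yth27*) and 328 ± 39.3 CPM in WT (log2 fold change −0.41, unadjusted p = 0.0293, adjusted p = 0.283 by edgeR). For *pdha-1* the difference was 0.00, with a 95% interval of the fold from 0.846 to 1.19, and for *cts-1* it was 0.03, with an interval from 0.762 to 1.37. *pdhb-1* and *dlat-1* were higher in *lin-40*(*yth27*) by 0.19 and 0.21 on the log2 scale, which the spread between libraries did not separate from 0.

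The 6 mitochondrial enzymes varied together from library to library. As a description, their deviations from the group means correlated with a median of 0.848 over the 15 pairs (0.553 to 0.978, n = 12 libraries, which share depth and scaling). The same correlation within other sets of genes was not computed, so it is not shown to be particular to these enzymes. Relative to its mean over all libraries, their average log2 level was highest in WT EV replicate 1 (0.32) and in *lin-40*(*yth27*) *cco-1* replicate 3 (0.29), which are the libraries with the lowest scaling factors. It was lowest in the 3 *lin-40*(*yth27*) EV libraries (−0.17, −0.22 and −0.25). *acly-1* and *acly-2* deviated together (0.733), and the correlations of *acs-19* with the mitochondrial enzymes lay between −0.371 and 0.205. The genes most like the mitochondrial mean over the 12 libraries were *atp-2* (Pearson's r = 0.972), for a subunit of ATP synthase, *nduf-9* (0.963), named for a subunit of complex I, and *immt-1* (0.963), for an inner mitochondrial membrane organizing protein. *acs-19* was most like *sptl-1* (0.952), for a serine palmitoyltransferase subunit, and *acly-1* most like *phf-5* (0.906).

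**Figure D5:**
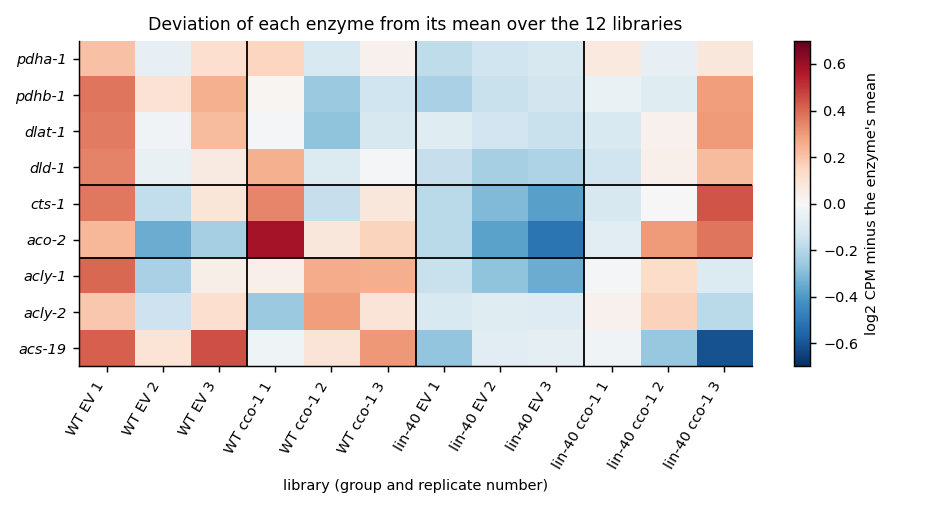
Deviation of the log2 CPM of each enzyme from its mean over the 12 libraries (color scale, red higher and blue lower), with vertical lines between groups and horizontal lines between the PDH, citrate and cytosolic enzymes. The mitochondrial enzymes are low together in the 3 *lin-40*(*yth27*) EV libraries and high together in WT EV replicate 1 and *lin-40*(*yth27*) *cco-1* replicate 3, where *acs-19* is at its lowest.

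The steps around these enzymes were read from 4 lists, of which 42 of 43 genes could be matched and tested. The downstream part of the TCA cycle, from isocitrate dehydrogenase to malate dehydrogenase, had all 15 genes higher upon *cco-1* RNAi in *lin-40*(*yth27*). Their median log2 fold change was 0.29, where 45.8% of all genes were higher (median −0.03). All 15 were lower in *lin-40*(*yth27*) than in WT on EV (−0.36), where 46.3% of all genes were (0.03). These comparisons share the *lin-40*(*yth27*) EV libraries, with the highest adult-stage sums, whose part was not tested. None of the 15 passed in either, against 1.16% and 0.377% of all genes. In WT, 3 of them were higher and 12 lower upon RNAi, with a median of −0.07 against 0.06. None was called there, against 6.25% of all genes. Of the 10 genes for pyruvate entry and PDH regulation, 7 were higher upon RNAi in WT and 8 in *lin-40*(*yth27*). Their medians were 0.13 and 0.16, against 0.06 and −0.03 for all genes. In each genotype 1 passed, a different gene, where 6.25% of all genes were called in WT and 1.16% in *lin-40*(*yth27*). *lias-1*, for the lipoic acid synthase that supplies the cofactor of *dlat-1*, rose in WT from 81.2 ± 3.44 to 115.4 ± 15.7 CPM (log2 fold change 0.51, adjusted p = 0.0234 by edgeR). In *lin-40*(*yth27*) it measured 71.5 ± 2.37 and 97.0 ± 5.97 CPM, and its responses differed by −0.07 (adjusted p = 0.873 by edgeR). *ldh-1*, lactate dehydrogenase, which diverts pyruvate from the PDH complex, rose in *lin-40*(*yth27*) from 125 ± 6.07 to 234.9 ± 36.7 CPM (0.91, adjusted p = 0.0187 by edgeR). In WT *ldh-1* measured 164 ± 23.3 and 214 ± 31.7 CPM, and the difference between its responses did not pass (0.53, adjusted p = 0.424 by edgeR). None of the 12 genes of side routes passed in any comparison, where 0.0% to 6.25% of all genes did. Upon RNAi their medians were −0.16 in WT and 0.16 in *lin-40*(*yth27*), against 0.06 and −0.03 for all genes. Among 5 genes of processes that draw on acetyl-CoA, 1 passed in WT, where 6.25% of all genes did. It was *hmgr-1*, the HMG-CoA reductase of the mevalonate pathway, which rose from 29.1 ± 0.633 to 49.5 ± 3.67 CPM (0.76, adjusted p = 0.00783 by edgeR). In *lin-40*(*yth27*) it measured 31.5 ± 2.47 and 40.8 ± 7.68 CPM, and the difference between the responses did not pass (−0.39, adjusted p = 0.453 by edgeR).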

How the data were processed

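RNA selected by oligo(dT) from whole L4 worms was sequenced from both ends in 12 libraries. The authors trimmed the reads, aligned them with TopHat and quantified genes with RSEM. Neither their genome build nor their annotation is given in the sources used here. The deposited values were taken to be expected counts per gene, without normalization, since they are mostly whole numbers with unequal totals. 0 columns belonged to other samples. The expected counts were rounded, filtered by filterByExpr, scaled by TMM and fitted by the quasi-likelihood model of edgeR 4.0.16 in R 4.3.3 on all 12 libraries, with a BH adjusted p under 0.05 over all genes tested. The common dispersion of 0.0679 gives a biological coefficient of variation of 26.1%. Replicates of a group differed beyond sampling noise (chi-square divided by its degrees of freedom, 4.24 to 97.5).

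The enzymes, lists and comparisons were chosen with earlier results of these data known. The text names the 9 enzymes, *cco-1* and *lin-40*, list genes past the threshold, and the genes most correlated with the enzymes. Alternatives were median-of-ratios scaling, library totals, no filter, DESeq2 1.42.0, the 6 libraries of a comparison, replicate blocks by the numbers in titles or short names, and each library left out. EV and *cco-1* libraries of one title number correlated at −0.324, −0.192 and −0.113 in *lin-40*(*yth27*), so the numbers were not taken to pair those. They were taken to pair the WT libraries, at 0.723, 0.588 and 0.288, and by title the EV libraries across genotypes, at 0.467, 0.278 and 0.169, although by short name the latter gave −0.426 and 0.169. The study states no pairing, so these choices rest on the same values as the comparisons. Intervals cover the spread between these libraries.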

Additional observations from a re-analysis of the deposited data

Results flagged for a closer look

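The response of *pdhb-1* to *cco-1* RNAi in *lin-40*(*yth27*) minus that in WT was 0.601 on the log2 scale. It stands out because all 3 RNAi libraries were below all 3 EV libraries in WT and above all 3 in *lin-40*(*yth27*). Taken alone, 13.3% of all genes were lower without overlap in WT, and 11.1% were higher without overlap in *lin-40*(*yth27*). The share of all genes with both was not computed, so how unusual this pattern is cannot be told. By edgeR's quasi-likelihood test the interaction had an adjusted p of 0.394 (0.00795 unadjusted), so the difference did not pass over all genes. Over the alternatives its lowest adjusted p was 0.0512, with the replicate block by short-name number, and its value was 0.30 with library totals (adjusted p = 0.488 by edgeR), where the median of all genes was −0.31. It was 0.46 when *lin-40*(*yth27*) *cco-1* replicate 3 was left out.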

How the results depend on the processing

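The number of enzymes past the threshold was 0 in all 5 comparisons and stayed at 0 (0 to 0) with each library left out, with median-of-ratios scaling, without the filter and in DESeq2. For *cco-1* RNAi in WT it was 1 with library totals (*aco-2*, adjusted p = 0.0407 by edgeR), a fit that called 628 of 14867 genes. It was also 1 with the replicate block by short-name number (*pdhb-1*, adjusted p = 0.0465 by edgeR), which called 2366 of 14867. It was 3 with the replicate block by title number on the 6 WT libraries, which called 2508 of 14261 genes. That fit was added after the data were seen, and the number was 0 with that block on all 12 libraries. In *lin-40*(*yth27*) it was 1 with the block by short-name number (*aco-2*, adjusted p = 0.0489 by edgeR), which called 375 of 14867 genes. These short-name numbers pair only part of the *lin-40*(*yth27*) libraries. In the genotype comparisons and the interaction no alternative called an enzyme. Of the choices tried, library totals changed the most signs, 12 of 45. For *cco-1* RNAi in WT, the median of the 9 was 0.07 with library totals (all genes 0.19) and 0.04 without WT EV replicate 1. In *lin-40*(*yth27*) it was 0.06 with library totals (all genes −0.18) and 0.16 without *cco-1* replicate 3. On EV it was −0.19 with library totals (all genes 0.16). DESeq2 called more genes than edgeR, which tested 14867 in each comparison. Upon RNAi, DESeq2 called 1428 of 14999 in WT, against 929, and 395 of 14637 in *lin-40*(*yth27*), against 173. For the interaction DESeq2 called 43 against 0, but gave an adjusted p to only 3070 genes. Between the genotypes DESeq2 called 457 of 15722 on EV, against 56, and 393 of 16084 on *cco-1* RNAi, against 93. The block by short-name number called 2366 in WT, 375 in *lin-40*(*yth27*) and 1023 for the interaction. Counts of 943 or more per enzyme mean that depth limited no value, and the spread between 3 libraries did. The cause of these differences was not tested.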
